A study of Mus musculus with 12 samples.

Results

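Mouse embryonic fibroblasts (MEFs) on day 9 of reprogramming were divided by a cell sort into a Thy-1- fraction (D9T-) and a Thy-1+ fraction (D9T+), and the comparison of these fractions is described here gene by gene. Genes were taken from the deposited expression table when they reached at least 1 FPKM (fragments mapped to a gene, scaled by transcript length and by all mapped fragments of the library) in either fraction, which kept 12204 of 24098 genes. Differences are given as D9T- minus D9T+ on the log2(FPKM + 1) scale, so a negative value is a lower level in the Thy-1- cells, and the added 1 understates the change of genes with low values. Each fraction was 1 library, so the difference between them has no replicate check, no test was possible, and "higher" or "lower" means at least 2-fold apart on this scale unless another size is given.

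The fibroblasts came from embryos that carry GFP behind the Oct4 (Pou5f1) gene. Both fractions had received the same retroviruses (pMXs) for Sox2, Klf4, Oct4 and c-Myc (OSKM). The labels give both FF medium, a serum-replacement medium that holds LIF, bFGF, ascorbic acid and the GSK3 inhibitor CHIR99021. The study's methods name mESC and KOSR medium beside FF medium for reprogramming. The fractions share the virus, the day and, by the labels, the medium, and differ in the Thy-1 sort. The labels do not say whether both came from 1 culture. Of the other 10 libraries of the series, the day 6 fractions sorted in the same way (D6T- and D6T+), the starting fibroblasts (D0), day 16 cells positive for SSEA-1 (D16S+) and induced pluripotent stem cells (iPSCs) are used for reference. In sorted bulk cells, fewer cells of a type and less RNA per cell cannot be told apart.

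Thy-1 is a glycoprotein anchored in the outer membrane of fibroblasts and some other cells, and its loss is among the first surface changes of fibroblasts that respond to the OSKM factors. Responding cells are known to shut down the mesenchymal programme, which includes collagens, other matrix proteins and factors such as Twist and Zeb, and to take on epithelial features such as E-cadherin junctions, a step called the mesenchymal-to-epithelial transition. Genes of the pluripotency network, such as Nanog and Esrrb, are switched on later, while cells that keep Thy-1 mostly stay on the fibroblast side. The comparison asks which genes and functions set these fractions apart in the middle of the process.

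The sorted marker itself checked the labels. Thy1 (chr9:43851467-43856662 of mm9, plus strand, protein-coding) stood at 3.72 FPKM in D9T- and 491 FPKM in D9T+, a difference of -6.70. The same gene read 669 FPKM in D0, 3.24 and 477 FPKM in the Thy-1- and Thy-1+ fractions of day 6, and 3.15 FPKM in iPSCs, so the Thy-1- cells of day 9 sat at the iPSC level and the Thy-1+ cells near the fibroblast level. Among the other fibroblast markers, Pdgfra was at 1.37 against 13.3 FPKM, Pdgfrb at 2.33 against 19.1 FPKM and Dcn at 4.19 against 25.1 FPKM, while Lum was barely expressed in either fraction (0.131 and 1.33 FPKM). Not all fibroblast surface and identity genes fell this far. Of 17 expressed on that list, 7 were lower, 10 lay within 2-fold and 3 had a positive difference, with a median of -0.63.

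In all, 257 genes (2.11% of the genes compared) were at least 2-fold higher in D9T- and 914 genes (7.49%) at least 2-fold lower. The wider the gap asked for, the more the calls leaned to one side: 16 genes were at least 4-fold higher against 231 at least 4-fold lower. The median over all genes was 0.03, and 90.4% of genes lay within 2-fold. Presence and absence were less lopsided, with 451 genes reaching 1 FPKM in D9T- alone and 552 in D9T+ alone. The 23 microRNA and small nucleolar RNA genes of the 12204, 12 higher and 3 lower, are too short for this kind of library to measure well and are not named.

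**Figure D1:**
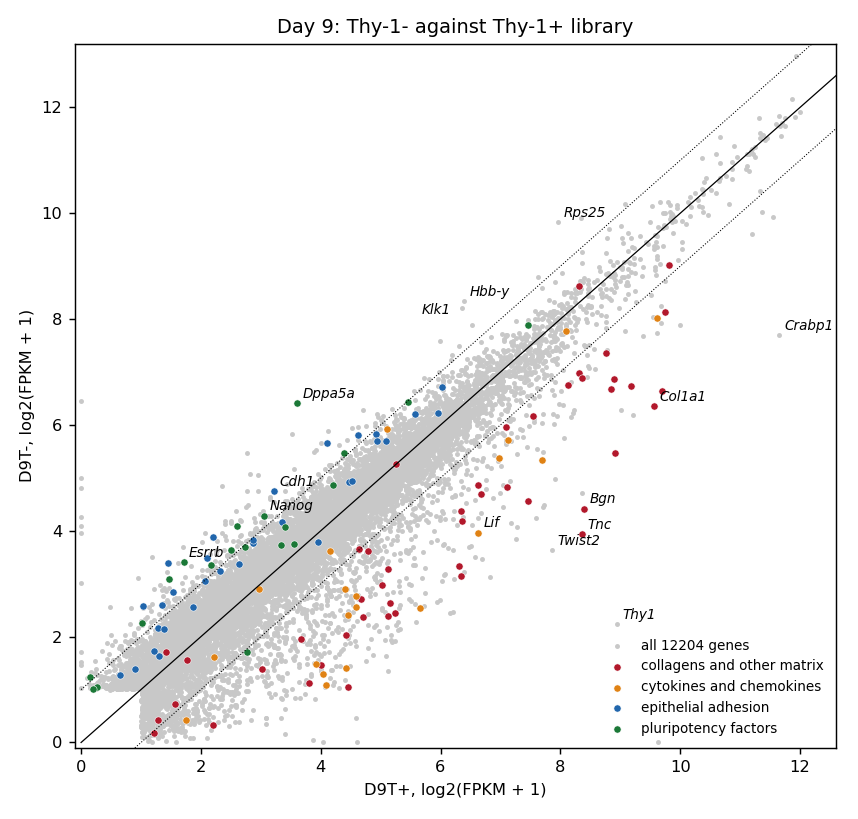
Level of each of 12204 genes in the Thy-1+ library (horizontal axis) and the Thy-1- library (vertical axis) of day 9, as log2(FPKM + 1). The solid line marks equal levels and the dotted lines a 2-fold difference. Collagens and other matrix genes fall far below the lines, while epithelial and pluripotency genes sit closer to the upper line.

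Collagens had the most negative median of the lists with at least 10 expressed genes. Of 21 collagen genes expressed, 19 were lower in D9T- and none was higher, with a list median of -2.16. Col1a1, the main chain of type I collagen, was at 81.1 FPKM in D9T- and 752 FPKM in D9T+, and Col5a3, a chain of type V collagen, at 1.07 and 20.9 FPKM. The exceptions were 2 chains of low level, Col4a6, found in basement membranes (1.95 and 2.42 FPKM), and Col17a1, found in hemidesmosomes (2.27 and 1.66 FPKM). Other basement membrane chains were lower, among them Col4a1 (125 and 317 FPKM), Col4a2 (117 and 328 FPKM) and Col4a5 (11.2 and 26.7 FPKM). Summed over the list, collagens held 0.162% of all FPKM in D9T- and 0.595% in D9T+.

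Non-collagen matrix genes followed closely, with 20 of 26 lower, none higher and a median of -1.96. Tnc (chr4:63620819-63681760 of mm9), which encodes the matrix glycoprotein tenascin C, was at 14.3 and 327 FPKM, against 2399 FPKM in D0 and 3.95 FPKM in iPSCs. Bgn, the small proteoglycan biglycan, was at 20.4 and 336 FPKM, and Nid1, which links laminin to collagen IV, at 43.6 and 482 FPKM. Both fractions were far below the starting fibroblasts for Tnc and Bgn, and the Thy-1- cells stood nearer to iPSCs. Fibronectin (Fn1) and Ctgf did not follow the rest of the list, with differences of 0.32 and 0.00. Of the enzymes that process and crosslink collagen, 10 of 19 were lower, among them the lysyl oxidase relatives Loxl1 (4.43 and 70.4 FPKM) and Loxl2 (7.29 and 38.4 FPKM), whereas Plod2 and P4ha1, a lysyl and a prolyl hydroxylase, lay within 2-fold (0.21 and -0.49).

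Matrix-degrading proteases and their inhibitors were lower together. Of 19 genes, 13 were lower and none was higher, with a median of -1.36. Mmp2, a gelatinase, was at 76.6 and 516 FPKM, its inhibitor Timp2 at 52.9 and 266 FPKM, and the urokinase gene Plau at 4.99 and 51.9 FPKM. A protease and its inhibitor were thus both lower in the Thy-1- cells. Slpi, a secreted inhibitor of leukocyte elastase that is on none of the gene lists, was among the genes with the largest FPKM excess in D9T+ (72.1 and 590 FPKM), and stood at 26.0 FPKM in D0 and 0.466 FPKM in iPSCs.

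The fibroblast transcription factors showed the same direction with a wide range. Twist2 (chr1:93698038-93744605 of mm9), a basic helix-loop-helix factor of the dermal mesenchyme, was at 11.4 FPKM in D9T- and 233 FPKM in D9T+, and Prrx1, a limb mesenchyme homeobox gene, at 12.7 and 56.4 FPKM. Of 19 such factors 8 were lower, among them Twist1 (9.40 and 30.3 FPKM) and Snai1 (4.70 and 11.9 FPKM), and none was higher. Zeb1 and Zeb2, repressors of E-cadherin, were at -0.91 and -0.85, short of the 2-fold line. Foxd1 was the member with the largest positive difference, 72.6 against 54.8 FPKM. Crabp1, which binds retinoic acid in the cytoplasm and is abundant in these fibroblasts, read 206 FPKM in D9T- and 3205 FPKM in D9T+, with 6195 FPKM in the starting fibroblasts, and had the largest FPKM excess in D9T+ of the named genes. Hox genes differed little: 1 of 22 was lower (Hoxb6, 1.87 and 4.78 FPKM), with a list median of -0.31.

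Contractile genes, the targets of the serum response factor, were lower in 10 of 20 cases. Tagln was at 11.9 and 87.9 FPKM, Myl9 at 7.63 and 50.6 FPKM and Acta2, smooth muscle actin, at 40.2 and 92.2 FPKM. Vim, the mesenchymal intermediate filament, stayed abundant in both fractions at 1366 and 2569 FPKM (-0.91). Actg2, the enteric smooth muscle actin, went the other way with 50.0 FPKM in D9T- and 27.7 FPKM in D9T+.

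**Figure D2:**
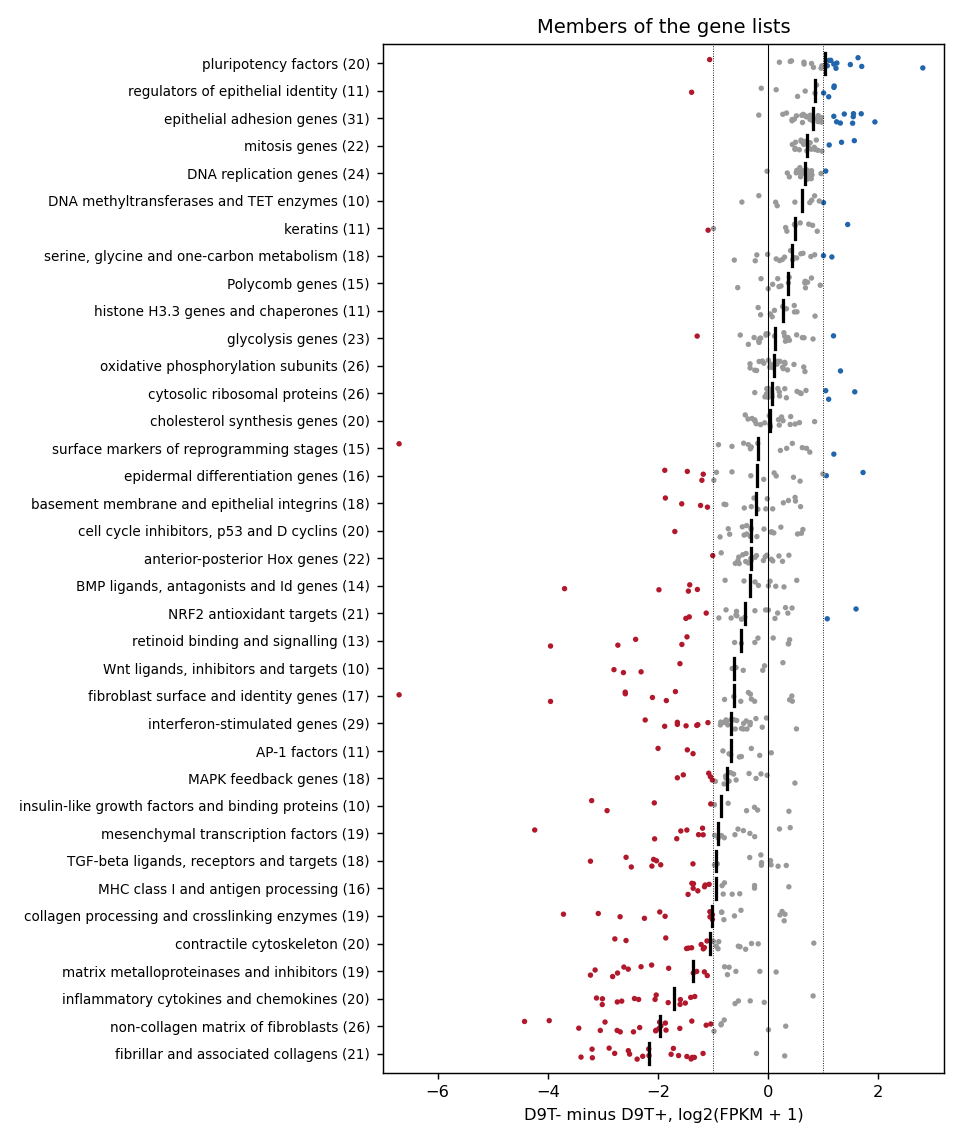
Difference between D9T- and D9T+ (horizontal axis, log2(FPKM + 1)) for the members of each gene list with at least 10 expressed genes, whose number is in brackets. Each point is 1 gene, blue at least 2-fold higher and red at least 2-fold lower in D9T-, and black bars are list medians. The medians run from 1.02 for pluripotency factors to -2.16 for collagens.

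Signals between cells were lower in the Thy-1- fraction as well. Of 20 cytokines and chemokines, 15 were lower and none was higher, with a median of -1.71. Cxcl5, which recruits neutrophils, was at 4.82 and 49.5 FPKM, the alarmin Il33 at 1.65 and 20.4 FPKM, and Ccl2, which recruits monocytes, at 260 and 786 FPKM. Il11 (1.12 and 16.1 FPKM) and Lif (14.6 and 97.7 FPKM) encode cytokines that signal through gp130, the receptor chain through which the LIF in the medium acts. Lif stood at 21.2 FPKM in D0 and 15.7 FPKM in D6T+, so its level in D9T+ was above that of the starting cells. Ccl8 was the exception among chemokines, at 59.5 FPKM in D9T- and 33.4 FPKM in D9T+.

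The list of TGF-beta ligands, receptors and targets had 8 of 18 genes lower, none higher and a median of -0.95. The ligand Tgfb1 was at 3.08 and 15.6 FPKM, the activin subunit Inhba at 6.18 and 39.2 FPKM, the co-receptor Tgfbr3 at 3.65 and 26.8 FPKM and the inhibitory Smad7 at 2.64 and 13.1 FPKM. The type I receptor Tgfbr1, in contrast, read 1.99 and 1.91 FPKM. Grem1, a secreted antagonist of bone morphogenetic proteins (BMPs), was at 7.73 and 112 FPKM and led 5 of 14 lower genes on the BMP list, while the BMP targets Id1 and Id3 parted, with Id1 at 0.00 and Id3 at -1.98. On the list of insulin-like growth factors (IGFs) and their binding proteins 4 of 10 genes were lower, all of them binding proteins. Igfbp7 led them (7.90 and 81.1 FPKM), whereas Igf2 itself lay at -0.19. Of the Wnt genes 4 of 10 were lower, with the non-canonical ligand Wnt5a at 1.60 and 17.1 FPKM and the antagonist Dkk2 at 3.92 and 23.4 FPKM. The canonical target Axin2 was low in both (0.419 and 1.23 FPKM).

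Genes of retinoid handling were lower in 5 of 13 cases: Crabp1, the retinoic acid hydroxylase Cyp26b1 (5.06 and 39.2 FPKM), the carrier Rbp4 (0.980 and 9.50 FPKM), its receptor Stra6 and the retinal reductase Dhrs3. The sister gene of Crabp1, Crabp2, was not lower (423 and 323 FPKM), nor were the receptors Rara and Rarg past 2-fold (0.09 and -0.61).

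Among interferon-stimulated genes 8 of 29 were lower and none was higher, with a median of -0.67. Isg15, a ubiquitin-like modifier, was at 64.9 and 206 FPKM and the GTPase Iigp1 at 2.16 and 13.8 FPKM. Tgtp1, a related GTPase that is on no list, read 0.0279 FPKM in D9T- and 13.7 FPKM in D9T+, and was under 1 FPKM in D0, in both day 6 fractions and in iPSCs. It reached 14.7 and 28.7 FPKM in the SSEA-1- libraries of days 12 and 16. MHC class I and antigen processing genes had 8 of 16 lower, including the immunoproteasome subunit Psmb8 (48.8 and 135 FPKM), the class I heavy chain H2-K1 (137 and 354 FPKM) and the peptide transporter Tap2 (29.1 and 66.2 FPKM). Class I genes form a family of close copies, so the values of single members such as H2-K1 and H2-Q4 are uncertain.

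AP-1 factors, which are dimers of Fos and Jun proteins that drive many fibroblast enhancers, were lower in 3 of 11 cases and higher in none, with a median of -0.68. Fosl1 was at 22.8 and 94.2 FPKM, Fosl2 at 32.1 and 90.6 FPKM and Junb at 169 and 437 FPKM, while Fos (150 and 167 FPKM) and Atf3 (45.2 and 43.4 FPKM) were alike in level. Of 18 genes induced by and feeding back on MAPK signalling, 5 were lower: the phosphatases Dusp1, Dusp4 and Dusp10, Ier3 and Egr2. Dusp4 was at 18.4 and 60.0 FPKM and Ier3 at 119 and 349 FPKM.

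The consensus site that AP-1 dimers bind, TGANTCA, which reads the same on both strands, was searched in RefSeq promoters of GRCm38 (250 bases before to 50 after the start). Of the 914 lower genes 654 had a promoter there, and 71 of these genes (10.9%) held the site, against 10 of 173 higher genes (5.78%) and 574 of 9197 expressed genes (6.24%). Over all 27025 genes of the promoter table the share was 8.97%. By list, the lower genes of epidermal differentiation held it in 4 of 4 cases, the lower cytokines in 4 of 10 and the lower collagens in 1 of 16. The octamer ATGCAAAT, to which Oct4 binds, was found on either strand in 1.73% of higher, 1.68% of lower and 1.73% of expressed genes. A match is a description of the letters and not a bound site, and the shares were not tested.

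The 5 lower list members with the largest differences whose site lies before the start are shown, since they come from the cytokine, matrix, retinoid and protease lists described above. Each line gives the 250 bases before the annotated start in the direction of transcription, with the site in capitals, from chr7:4778142-4778391 on the minus strand for Il11, chr11:28852955-28853204 on the plus strand for Efemp1, chr11:4257318-4257567 on the plus strand for Lif, chr19:38124812-38125061 on the minus strand for Rbp4 and chr9:7445572-7445821 on the plus strand for Mmp3, all in GRCm38.p6, a later build than the mm9 of the expression table.
Il11: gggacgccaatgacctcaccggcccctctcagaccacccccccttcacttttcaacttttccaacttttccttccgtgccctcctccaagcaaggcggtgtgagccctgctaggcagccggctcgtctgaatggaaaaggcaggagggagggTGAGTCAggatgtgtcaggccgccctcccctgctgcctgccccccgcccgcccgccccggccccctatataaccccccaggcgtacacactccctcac
Efemp1: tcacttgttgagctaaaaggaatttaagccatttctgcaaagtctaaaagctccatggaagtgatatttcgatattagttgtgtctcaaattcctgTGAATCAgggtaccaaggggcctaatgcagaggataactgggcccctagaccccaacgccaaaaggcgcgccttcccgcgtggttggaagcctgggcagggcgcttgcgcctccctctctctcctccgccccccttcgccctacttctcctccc
Lif: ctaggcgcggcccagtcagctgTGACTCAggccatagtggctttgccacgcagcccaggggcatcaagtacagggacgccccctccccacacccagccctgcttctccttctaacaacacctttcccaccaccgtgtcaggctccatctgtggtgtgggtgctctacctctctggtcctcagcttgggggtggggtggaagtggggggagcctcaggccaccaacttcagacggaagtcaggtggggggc
Rbp4: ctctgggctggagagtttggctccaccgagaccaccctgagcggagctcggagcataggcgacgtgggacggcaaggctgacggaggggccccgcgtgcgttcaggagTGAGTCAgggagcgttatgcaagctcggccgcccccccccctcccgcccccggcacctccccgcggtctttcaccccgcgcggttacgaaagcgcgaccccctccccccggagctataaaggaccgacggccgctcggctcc
Mmp3: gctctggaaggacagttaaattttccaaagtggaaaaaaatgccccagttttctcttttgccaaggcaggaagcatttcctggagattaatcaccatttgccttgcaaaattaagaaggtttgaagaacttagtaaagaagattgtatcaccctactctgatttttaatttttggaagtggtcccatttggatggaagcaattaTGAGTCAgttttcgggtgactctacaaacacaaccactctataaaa
The first base of the site lay 98 bases before the start in Il11, 154 in Efemp1, 228 in Lif, 142 in Rbp4 and 46 in Mmp3. Their differences between the fractions were -3.01, -2.96, -2.66, -2.41 and -2.12, respectively.

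On the side of genes higher in D9T-, epithelial junction genes leaned to the D9T- side. Of 31 genes 30 had a positive difference, 9 were higher and none was lower, with a median of 0.81. Cdh1 (chr8:109127251-109194146 of mm9), E-cadherin, was at 25.8 FPKM in D9T- and 8.27 FPKM in D9T+, against 0.150 FPKM in D0 and 203 FPKM in iPSCs. Epcam, an epithelial surface adhesion protein, was at 55.2 and 23.6 FPKM, the tight junction claudin Cldn4 at 49.3 and 16.2 FPKM and the epithelial splicing factor Esrp1 at 4.99 and 1.05 FPKM. Genes of epithelial membrane traffic led the list, namely Ap1m2, an adaptor subunit for basolateral sorting (9.48 and 1.74 FPKM), and Rab25 (13.8 and 3.60 FPKM). The Thy-1+ cells were not without epithelial transcripts: each of these 6 genes was above its D0 level in D9T+ too.

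Among regulators of epithelial identity 4 of 11 were higher, namely Ehf (3.66 and 1.03 FPKM), Tfap2c (9.83 and 3.73 FPKM), Grhl1 (6.80 and 2.64 FPKM) and Elf3 (31.3 and 15.1 FPKM), and Cebpa was lower (0.829 and 3.79 FPKM). Keratins were mixed. Krt17, a keratin of activated epidermis, was higher at 23.2 and 7.91 FPKM, Krt23 was lower at 0.0304 and 1.20 FPKM, and the simple epithelium pair Krt8 and Krt18 was within 2-fold (0.58 and 0.48). Genes of late epidermal differentiation did not follow the junction genes, since 4 of 16 were lower (Ivl, Sbsn, Sprr1a and Sprr2k) and 2 higher (Sfn and S100a14). Involucrin (Ivl) was at 0.261 and 3.64 FPKM and S100a14 at 16.5 and 4.30 FPKM.

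Pluripotency factors had the highest list median, 1.02, with 10 of 20 expressed members higher and 1 lower. Dppa5a (chr9:78214859-78215984 of mm9), an RNA-binding protein of pluripotent cells, showed the largest positive difference of the named genes, 2.81, from 84.3 FPKM in D9T- and 11.2 FPKM in D9T+. Its level was 1.34 FPKM in D0 and 2441 FPKM in iPSCs, so both fractions were still far from the end point. Nanog was at 18.5 and 7.30 FPKM against 143 FPKM in iPSCs, Esrrb, an orphan nuclear receptor of naive cells, at 9.61 and 2.27 FPKM against 165 FPKM, and Tdgf1, the Nodal co-receptor, at 16.1 and 5.10 FPKM against 176 FPKM. The remaining higher members were Dppa4, Fbxo15, Fgf4, Mybl2, Nr0b1 and Utf1. Dppa3 and Zfp42 only just reached 1 FPKM in D9T- (1.02 and 1.07 FPKM), and 9 of the 29 measured members stayed under 1 FPKM in both fractions. The lower member was Tbx3, a T-box factor that fibroblasts express too (2.26 and 5.81 FPKM). None of the 14 germline genes silenced by DNA methylation reached 1 FPKM.

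The factor genes themselves were close. Pou5f1 read 2769 FPKM in D9T- and 1617 FPKM in D9T+, Sox2 258 and 301 FPKM, Klf4 658 and 586 FPKM, and Myc 605 and 432 FPKM. None was 2-fold apart on day 9. On day 6 all 4 were higher in D6T- than in D6T+, with a median difference of 1.34. A gene-level value does not separate viral from endogenous transcripts, and the Pou5f1 levels of both fractions exceeded the 1516 FPKM of iPSCs.

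**Figure D3:**
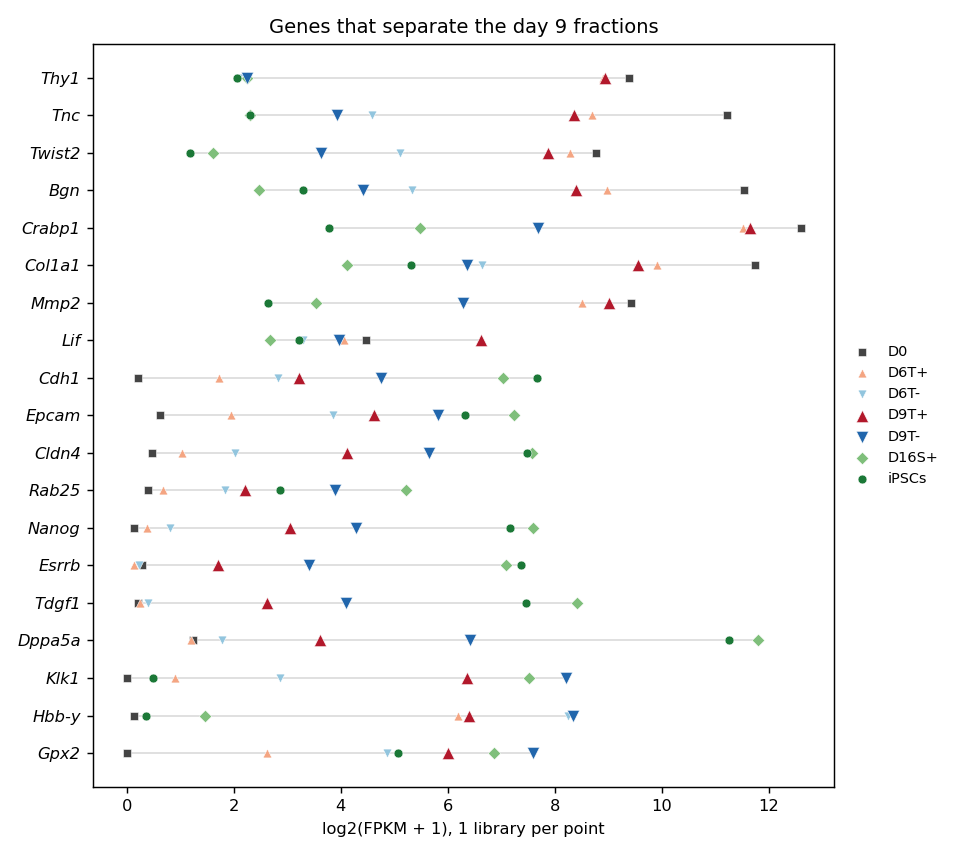
Levels of 19 genes (log2(FPKM + 1), horizontal axis) in 7 libraries, 1 point a library, with the day 9 fractions as large triangles and points at the same level overlapping. Fibroblast genes lie further left in D9T- than in D9T+, and for Cdh1 to Dppa5a the D9T- point lies between the D9T+ point and that of D16S+.

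Proliferation genes shifted as a block by a small amount. All 22 mitosis genes were positive, with a median of 0.71 and 3 past 2-fold: Ccnb1 (17.5 and 5.27 FPKM), Mki67 (18.9 and 6.93 FPKM) and Ccna2 (12.1 and 5.06 FPKM). Of 24 DNA replication genes 23 were positive, with a median of 0.67 and Mcm10 as the member past 2-fold (13.3 and 5.91 FPKM). Ccnb1, Ccna2 and Mcm10 had their lowest level of all 12 libraries in D9T+, while Mki67 did not. The CDK inhibitor Cdkn2b, a TGF-beta target, was lower (9.79 and 33.9 FPKM), and the D cyclin Ccnd1 was at 147 and 240 FPKM. Cdkn2a and Cdkn1a stayed high in both fractions, with 163 and 299 FPKM for Cdkn2a and 507 and 666 FPKM for Cdkn1a.

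Few chromatin genes were past 2-fold. List medians were 0.62 for DNA methyltransferases and TET enzymes, 0.37 for Polycomb genes and 0.26 for histone H3.3 genes and chaperones. Tet1, a 5-methylcytosine oxidase, was at 2.41 and 0.702 FPKM and was the 1 of 10 methylation enzymes past 2-fold, with Tet2 at 0.93 and Dnmt3b at 0.84. No Polycomb gene of 15 was past 2-fold (Ezh2 reached 0.95), nor was any of 11 genes for histone H3.3 and its chaperones. The H3.3 genes H3f3a and H3f3b read 142 and 191 FPKM in D9T- and 157 and 217 FPKM in D9T+.

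Metabolic lists were mostly level. Glycolysis, oxidative phosphorylation, ribosomal protein and cholesterol synthesis lists had medians from 0.04 to 0.11. Still, 3 of 26 ribosomal protein genes were higher and none lower, with Rpl7 at 1159 and 541 FPKM and Rpl5 at 148 and 71.4 FPKM. Of 26 oxidative phosphorylation subunits 1 was higher. Eef1a1, a translation elongation factor on no list, was at 8066 and 3926 FPKM. Within the glycolysis and hypoxia list the neuronal-type glucose transporter Slc2a3 was higher (69.8 and 30.1 FPKM) and Vegfa lower (34.6 and 86.1 FPKM). Gcsh and Amt, both parts of the glycine cleavage system, were the higher members of the one-carbon list. NRF2 targets divided, with Hmox1 (302 and 817 FPKM), Srxn1 and Taldo1 lower and Gsta3 and Gpx2 higher. Gpx2, a glutathione peroxidase of epithelia, was at 192 and 62.7 FPKM and listed at 0 in D0.

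Apart from the lists, 2 genes that were under 1 FPKM in both D0 and iPSCs were high in D9T-. Klk1 (chr7:51480807-51484987 of mm9), tissue kallikrein, was at 293 FPKM in D9T- and 80.9 FPKM in D9T+, listed at 0 in D0 and at 0.408 FPKM in iPSCs. Hbb-y (chr7:111000259-111001754 of mm9), the embryonic beta-like globin, was at 324 and 82.9 FPKM, against 0.0996 FPKM in D0 and 0.273 FPKM in iPSCs. On day 6 Hbb-y already read 305 and 72.1 FPKM, while Klk1 was at 6.31 and 0.858 FPKM. By day 12 Klk1 read 742 FPKM in SSEA-1+ and 244 FPKM in SSEA-1- cells, so D9T- was not its highest library. Hbb-y was at 9.33 and 27.1 FPKM there. Globins form a cluster of close copies, and reads that map to more than 1 place were removed upstream. Fgfbp1, a secreted carrier of FGFs made by epithelia, was at 179 and 78.7 FPKM.

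Some of the higher genes were low in D9T+ against the whole series. The call asks for D9T+ below D9T-, which favours a lowest level there, and the share over all genes was not computed. Of the 257 higher genes, 63 (24.5%) had their lowest level of all 12 libraries in D9T+, so for these D9T+ was low and not only D9T- high. Ccnb1, Ccna2 and Mcm10 are among them, and so are short housekeeping genes: Rps25, a ribosomal protein gene, was at 909 FPKM in D9T- and 249 FPKM in D9T+ with 380 FPKM in D0 and 802 FPKM in iPSCs, Nop10, a small protein of the pseudouridine-making particles, at 43.1 and 5.82 FPKM, and Sec61g, a subunit of the translocon, at 10.3 and 1.26 FPKM. Of the 15 genes named for the largest positive difference, 9 belonged to these 63 (Nop10, Pisd-ps3, Sec61g, Rpl26, Magoh, Raet1e, Pfdn4, Sarnp and Rps25). The transcripts of these 63 genes, found for 53 of them, had a median GC content of 44.6% and a median length of 1856 bases. All 257 higher genes, 213 of them with a transcript, had medians of 47.5% and 1925 bases. For all genes compared the medians were 51.05% and 3001 bases.

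The difference between the fractions moved with GC content over all genes. Genes of at least 5 FPKM were put in 10 equal groups by the GC content of their transcript. The median difference went from 0.24 in the group with the lowest GC content to -0.28 in that with the highest, whereas on day 6 the same groups read 0.13 and -0.07. The share of higher genes went from 4.12% to 0.847% and that of lower genes from 5.08% to 12.5%. With the median of each GC group subtracted, a setting added after the data were seen, 178 genes were higher and 863 lower among 11173 genes with a transcript, against 213 and 865 of the same genes without it, and the list medians for collagens, cytokines, epithelial junctions, pluripotency and mitosis were -2.03, -1.94, 0.96, 1.00 and 0.63. Whether GC content, transcript length or the D9T+ library stands behind these values was not tested.

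**Figure D4:**
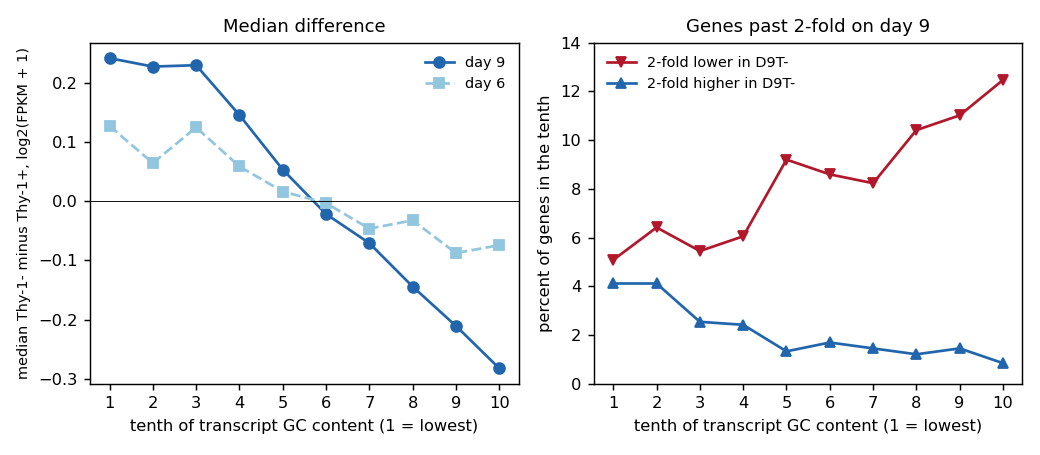
Left, median difference between Thy-1- and Thy-1+ (log2(FPKM + 1)) in 10 equal groups of genes by the GC content of their transcript, on day 9 and day 6. Right, percent of genes in each group at least 2-fold higher or lower in D9T-. On day 9 the median runs from 0.24 to -0.28.

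The genes lower in D9T- were largely genes that fibroblasts lose. With iPSCs set against the starting fibroblasts, 731 of the 914 (80.0%) were down by 2-fold or more and 16 up, where 2810 of the 12204 genes were down. The same contrast had 150 of the 257 higher genes (58.4%) up and 9 down, where 16.8% of all genes were up. By library, 491 of the lower genes had their highest level in D0 and 180 in D9T+ itself. For the higher genes the top library was most often D16S+ (96 genes), then D9T- (41 genes) and the embryonic stem cell library ESD3 (40 genes). The calls shape these counts, since a lower gene cannot be highest in D9T-, nor a higher gene in D9T+. The shares over all genes were not computed.

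The day 6 fractions, which share no library with them, are set beside those of day 9 here. Over the 12204 genes, 397 (3.25%) were higher and 1299 (10.6%) lower in D6T- than in D6T+, and the differences of the days correlated across genes with Pearson r = 0.80 and Spearman rho = 0.76, given as a description since genes are not replicates. Of the genes lower on day 9, 770 were lower on day 6 as well, which is 84.2% of the day 9 genes and 59.3% of the day 6 genes. For the higher genes the overlap was 66, which is 25.7% of the day 9 genes and 16.6% of the day 6 genes. Most of the others did not reach 2-fold on day 6 in either direction, with 3 of the 257 lower on day 6 and a median day 6 difference of 0.62, against 1.19 on day 9. Several pluripotency genes read differently on the days. Esrrb differed by 0.10 on day 6 and 1.70 on day 9, Dppa5a by 0.59 and 2.81, and Tdgf1 by 0.15 and 1.49, whereas Nr0b1 went from 2.79 to 1.14 and Tdh from 2.40 to 0.98.

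Contractile and early response genes also differed between the days. Acta2 was at -3.46 on day 6 and -1.18 on day 9, Tagln at -4.20 and -2.78, and the contractile list at -1.62 and -1.05. Fosb was higher in the Thy-1- cells of day 6 (26.8 and 8.48 FPKM) and lower in level on day 9 (32.2 and 57.7 FPKM), and Egr2 went from 5.76 and 2.27 FPKM to 10.5 and 22.2 FPKM. For both genes the day 9 fractions read above the day 6 fractions, and the Thy-1+ level changed most. Neither gene was tested between the days.

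**Figure D5:**
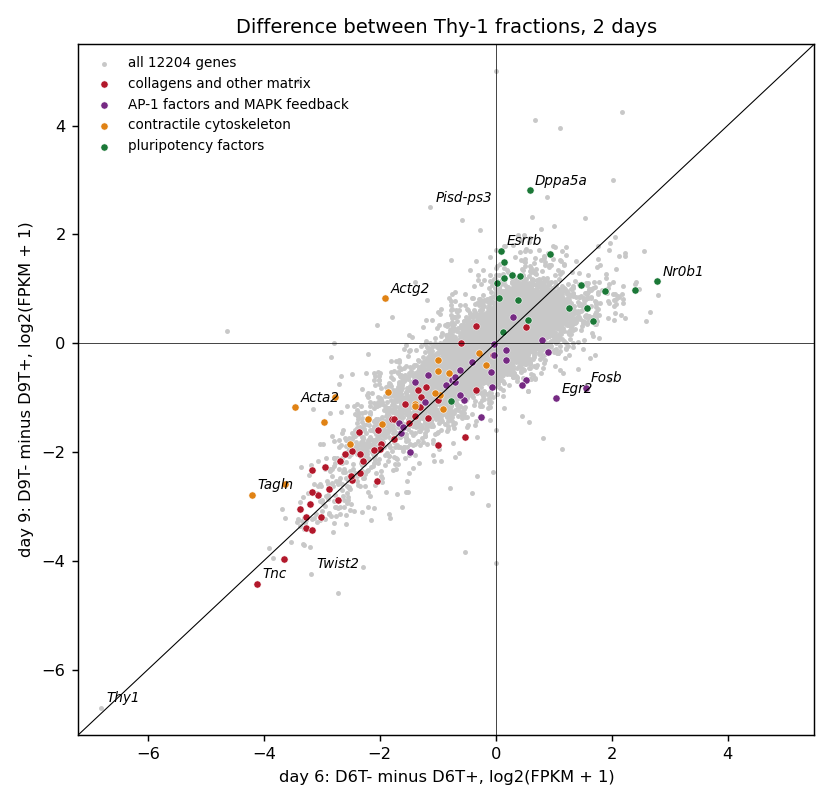
Difference between the Thy-1- and Thy-1+ fractions on day 6 (horizontal axis) and day 9 (vertical axis) for 12204 genes, as log2(FPKM + 1), with the line of equal differences. Matrix genes lie near the line, contractile genes above it, and several pluripotency genes near 0 on day 6 and above 1 on day 9. Among these, Esrrb was under 1 FPKM in both day 6 fractions.

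Markers of other cell types reached 1 FPKM in shares that varied by list, where 12204 of all 24098 genes did so in either fraction. Of 15 leukocyte markers 4 reached 1 FPKM, with summed levels of 68.3 FPKM in D9T- and 51.4 FPKM in D9T+, while the pan-leukocyte gene Ptprc was at 0.178 and 0.0377 FPKM and the T cell gene Cd3e was listed at 0 in both. Mast cell and granzyme genes were expressed in 2 of 13 cases, both lower: Mcpt8 (3.64 and 37.4 FPKM, from 1201 FPKM in D0) and Gzme (0.769 and 9.28 FPKM). The mast cell genes Cpa3, Tpsb2 and Fcer1a were listed at 0 in both fractions, as were the muscle factor Myf5 and the glial factor Olig2. Endothelial markers reached 1 FPKM in 6 of 12 cases, with sums of 31.0 and 23.3 FPKM, and neural markers in 7 of 14, with 204 and 161 FPKM. Skeletal muscle markers were expressed in 8 of 14 cases, with sums of 79.6 and 64.9 FPKM. That order came from Mylpf, a fast myosin light chain (58.0 and 16.4 FPKM), since the other 7 members were lower in level in D9T- and the list median was -0.59. Of 8 adipocyte markers 3 were expressed, with sums of 33.8 and 125 FPKM, most of it from Fabp4 (18.0 and 97.5 FPKM). The part of such cells in the results was not tested. 

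The depth of the libraries is not in the files. Values of genes under 0.5 FPKM, which step by what 1 fragment is worth, put D9T- at 1.13 times the depth of D9T+, and total FPKM was 514938 in D9T- and 557447 in D9T+. Cuffdiff gave each value a modelled interval, and no gene of the 12204 had intervals that lie apart, since for genes of at least 10 FPKM the median half-width was 100.3% of the value in either fraction. Those intervals were modelled without replicates. Cuffdiff marked its estimate as other than OK in D9T+ for 4 genes, which include Ly6a.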

How the data were processed

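Polyadenylated RNA of 12 conditions, 1 library each, was sequenced from TruSeq libraries, for which the labels name a stranded kit and the study's methods another TruSeq kit, so strand use is uncertain. Per the labels and the study's methods, the authors mapped reads to mm9 with STAR, dropped reads with mismatches above their limit or with more than 1 locus and estimated expression with Cuffdiff. The deposited values are FPKM per gene with a lower and upper interval end and a status word. Versions and the gene annotation are not given in the sources used here. Columns were matched to libraries by day and marker sign.

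From these values, log2(FPKM + 1) differences were computed (pandas 2.3.3) for genes with at least 1 FPKM in either day 9 library, with 2-fold as the limit for a call. No test was possible with 1 library a side. The gene lists (46 lists, 845 symbols, 839 of them in the table) and the named genes were chosen with earlier results of these data known. Named were, per direction, 15 genes with the largest difference and 10 with the largest FPKM gap, leaving out the factor genes, unnamed genes, microRNAs, small nucleolar RNAs and loci under 500 bases, plus up to 5 members of each list and any member past 2-fold. List members named because they stayed within 2-fold or went against their list (Col4a6, Col17a1, Fn1, Ctgf, Plod2, P4ha1, Zeb1, Zeb2, Foxd1, Vim, Actg2, Ccl8, Tgfbr1, Id1, Igf2, Crabp2, Rara, Rarg, Fos, Atf3, Krt8, Krt18, Dppa3, Zfp42, Tdh, Cdkn1a, H3f3a and H3f3b), the absent cell type markers and Ly6a were chosen after their values were seen. GC content is that of the longest GENCODE M1 transcript per symbol, found for 91.6% of genes. Positions come from the same annotation. The scripts were tested on simulated data with known changes. Alternatives covered the pseudocount, scaling, filters and the fold limit.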

Additional observations from a re-analysis of the deposited data

Results flagged for a closer look

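The following values had opposite directions in the Thy-1 comparison of day 9 and that of day 6. With 1 library a fraction, none of these contrasts between days could be tested and the difference was not tested. Egr2, an early response factor, was at -1.01 on day 9 and 1.05 on day 6. Pisd-ps3, a pseudogene whose reads may be shared with its parent gene, was at 2.50 on day 9 and -1.13 on day 6, with 27.9 FPKM in D9T- and 4.12 FPKM in D9T+. Raver1-fdx1l, a readthrough gene that shares sequence with Raver1, met no naming rule and was chosen after its values were seen. It was at -1.94 on day 9 and 1.15 on day 6, with 2.10 FPKM in D9T- and 10.9 FPKM in D9T+. The median of 6 expressed endothelial markers was 0.42 on day 9 and -0.22 on day 6, and that of 8 skeletal muscle markers -0.59 on day 9 and 0.37 on day 6.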

How the results depend on the processing

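No paired analysis was possible because each condition had 1 library, and none could be left out. The counts of 257 higher and 914 lower genes became 587 and 1241 with a pseudocount of 0.1, 81 and 508 with a pseudocount of 5, and 16 and 231 with a 4-fold limit. Scaling to the same total FPKM, which moved the median of all genes to 0.13, gave 374 and 823, and the median of ratios gave 230 and 947. The median of matrix metalloproteinases and inhibitors became -2.33 with a pseudocount of 0.1 and -2.21 with at least 5 FPKM, and that of Wnt genes -1.96 with at least 5 FPKM, where fewer genes remained. The IGF list was at -1.65 in the day 6 pair. No list median of 2-fold or more changed sign under these settings. Among smaller medians, epidermal differentiation genes changed from -0.20 to 0.13 with at least 5 FPKM and 0.03 with GC groups centred (chosen, like a check of Cuffdiff's status words, after seeing the data), leukocyte markers from -0.10 to 0.61 with at least 5 FPKM, and neural markers from 0.17 to -0.00068 with no filter. Since no library was repeated, none of these values carries an error for the spread between cultures.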
